A study of Homo sapiens with 6 samples.

Results

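The actomyosin contractility genes are 44 genes picked by symbol from a list of actins, actin-binding proteins, tropomyosins, myosin II chains, the kinases and the phosphatase that act on myosin, and small GTPases of the RhoA family, out of 60675 genes in the count table. The RNA came from SUM159, a human cell line grown from a triple-negative breast cancer. There were 3 libraries labelled DAPK3 KO, from 1 knockout line, and 3 labelled control with the genotype DAPK3 WT. Both groups grew in Ham's F-12 medium with serum, HEPES, insulin and hydrocortisone, and how the knockout was made is not given in the sources used here. Of the 44 genes, 38 passed the filter on low counts over all 6 libraries and were tested. MYH14, a non-muscle myosin heavy chain, and PPP1R14A, a smooth muscle inhibitor of myosin phosphatase, had 0 expected counts in every library, which allows up to 3 counts or 0.13 to 0.186 CPM (counts scaled to the size of the library). ACTG2, CNN1, FHL1 and RND1 stayed at or below 17 expected counts per library and did not pass the filter, and RND1 passed it when both R2 libraries were left out.

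Contraction in non-muscle cells is driven by myosin II filaments that pull on actin bundles wrapped in tropomyosin. The motor is switched on when its regulatory light chain is phosphorylated by myosin light chain kinase, by the ROCK kinases or by DAPK3 itself (also called ZIPK), and switched off by a phosphatase made of a catalytic and a myosin-targeting subunit. Many genes of the apparatus are transcribed by SRF, a factor that binds the CArG box and whose MRTF cofactors respond to the amount of free actin.

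In both groups the R2 library had a DAPK3 level opposite to its label. The gene read 13.1, 27.2 and 11.2 CPM in the KO libraries R1 to R3, against 26.2, 10.5 and 26.1 CPM in the control libraries R1 to R3, so KO R2 was high and control R2 was low. Over all genes, the 6 pairs of libraries alike in DAPK3 level differed by a chi-square per degree of freedom of 12.9 to 41.1 and the 9 unlike pairs by 70.6 to 120, and the closest pair was KO R3 and control R2. Whether the labels of the R2 libraries were exchanged was not tested, and an exchange would change what each comparison of the labels means. No library was moved between groups, and fold changes of the named genes are given with and without both R2 libraries. Library totals ran from 16312184 to 22970823 expected counts. Hormone receptor and epithelial genes were near 0, with PGR at 0 in all libraries, ESR1 at most 0.478 CPM and CDH1 at most 0.0503 CPM, while VIM stood between 1425 and 3584 CPM and ERBB2 between 52.2 and 97.7 CPM. The summed level of 7 smooth muscle markers outside the 44 genes was 3.26 to 6.43 CPM in KO and 4.06 to 14.9 CPM in control libraries, with MYOCD and PLN at 0. The sum of 8 stromal and endothelial markers was 26.8 to 52.9 CPM in KO and 48.7 to 69.8 CPM in control libraries, with CDH5 at 0, and that of 6 blood markers 12.3 to 16.3 CPM in KO and 11.6 to 14.9 CPM in control libraries. These sums hide single markers that parted the libraries by DAPK3 RNA. PTPRC, the leukocyte antigen CD45, stood at 0.106, 3.28 and 0 CPM in the KO libraries R1 to R3, against 2.98, 0.0478 and 2.92 CPM in the control libraries R1 to R3. PDGFRB, a pericyte and fibroblast receptor, stood at 1.17, 11.5 and 1.17 CPM in the KO libraries, against 16.8, 1.96 and 19.4 CPM in the control libraries, and THY1 at 0.106, 1.30 and 0.217 CPM in the KO libraries, against 2.15, 0.239 and 2.01 CPM in the control libraries. Without both R2 libraries, 2 of 3 tested smooth muscle markers, 3 of 6 stromal and endothelial markers and 1 of 4 blood markers were called lower. None was called higher. Over all genes, 15.2% were called lower and 12.2% higher. The part of these markers in the results below was not tested.

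Promoter windows of 250 bases before the RefSeq gene start (GRCh38.p14) were read for the 40 members that matched by symbol. ACTB, TAGLN, MYL9 and RND1 had no matching window and were not searched. A CArG box is 10 bases long and the same motif on either strand. It was present in 8 of the 40 members read (20%) and in 1.16% of 35116 promoters of the same length. Stretches around the box, in capitals, are shown for 6 of these 8 members, picked with their RNA values known. ACTG2 among them had too few counts to be tested. Whether the box bears on the RNA of any member was not tested.
ACTG1, chr17:81512844-81512933, minus strand: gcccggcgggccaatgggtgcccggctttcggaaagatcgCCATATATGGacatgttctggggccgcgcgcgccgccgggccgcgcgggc
TPM4, chr19:16067325-16067414, plus strand: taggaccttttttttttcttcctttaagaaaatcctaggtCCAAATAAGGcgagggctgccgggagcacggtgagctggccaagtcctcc
MYLK, chr3:123620593-123620682, minus strand: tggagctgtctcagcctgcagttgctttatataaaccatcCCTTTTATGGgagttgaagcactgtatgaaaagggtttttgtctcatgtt
FHL2, chr2:105438565-105438654, minus strand: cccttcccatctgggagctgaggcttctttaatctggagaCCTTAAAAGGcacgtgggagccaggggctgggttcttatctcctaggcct
CNN2, chr19:1026479-1026568, plus strand: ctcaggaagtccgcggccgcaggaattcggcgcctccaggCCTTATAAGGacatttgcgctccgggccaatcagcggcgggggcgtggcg
ACTG2, chr2:73892858-73892984, plus strand: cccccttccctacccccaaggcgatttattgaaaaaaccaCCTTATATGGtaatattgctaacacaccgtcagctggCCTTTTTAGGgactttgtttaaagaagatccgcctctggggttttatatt

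The boxes begin between 73 and 173 bases before the start sites, and ACTG2 holds 2 of them. The MYLK window lies inside the gene, 263783 bases from its 5' end in GENCODE release 29 and 34 bases from the nearest annotated transcript start, where the short product telokin is known to begin. ROCK2 and RND3 also hold a box. Some searched members were called past a log2 change of 1 without both R2 libraries. Of these, ACTG1, TPM4 and MYLK held a box, and ACTA2, CNN3, CALD1, TPM1 and CIT held none in the windows read. The TEAD-type motif GGAATG, searched on both strands, was in 6 members (15%) and in 11.9% of all promoters. A match is a description of these letters and says nothing of binding.

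In the comparison of the labels over all 6 libraries, edgeR called 0 of the 38 contractility genes and 0% of the 14613 genes tested, with a smallest adjusted p of 0.635. Over all genes, 1119 had an unadjusted p under 0.05, DESeq2 called 124 and limma-voom called 0. At an unadjusted p under 0.05 there were 5 contractility genes (13.2%, against 7.66% of all genes), with ACTB, ACTG1, MYL6 and CIT lower in KO (4.17% of all genes) and CDC42BPA higher (3.49% of all genes). The labelled groups did not overlap for 5 of the 38 genes (13.2%, against 13.8% of all genes), a share at the background. These were ACTB, ACTG1, MYL6 and TPM3, lower in KO (6.86% of all genes), and CDC42BPA, higher in KO (6.97% of all genes).

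The libraries were parted by DAPK3 RNA rather than by label in most of the set. In 23 of the 38 genes (60.5%, against 43.5% of all genes tested) KO R1, KO R3 and control R2, the libraries with 10.5 to 13.1 CPM of DAPK3, lay wholly on one side of KO R2, control R1 and control R3, the libraries with 26.1 to 27.2 CPM. In 17 genes the libraries low in DAPK3 were the lower ones (44.7%, against 22.2% of all genes), and in 6 they were the higher ones (15.8%, against 21.3%). This is a description with no test, since the split comes from the same libraries.

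Both R2 libraries were then left out, an alternative chosen with earlier results of these data known. They are the libraries whose DAPK3 RNA went against their label. What remains is part of the split by DAPK3 RNA described above, so calls in it are no separate support for that split. In the 2 remaining libraries of each label, 39 contractility genes were tested. Of these, 20 were called at an adjusted p under 0.05, against 27.3% of 14846 genes, of which 15 were lower in KO (38.5%, against 15.2% of all genes) and 5 higher (12.8%, against 12.2%). Past a log2 change of 1, 9 were lower (23.1%, against 8.3% of all genes) and 1 higher (against 4.24%). The median log2 fold change of the 39 was −0.30, against −0.02 over all genes tested. Of the 20 calls, 14 held with each of the 4 libraries left out in turn. TAGLN, TAGLN2, ROCK2, FHL2, PPP1R14B and LIMK2 lost their call in at least 1 of these fits.

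**Figure D1:**
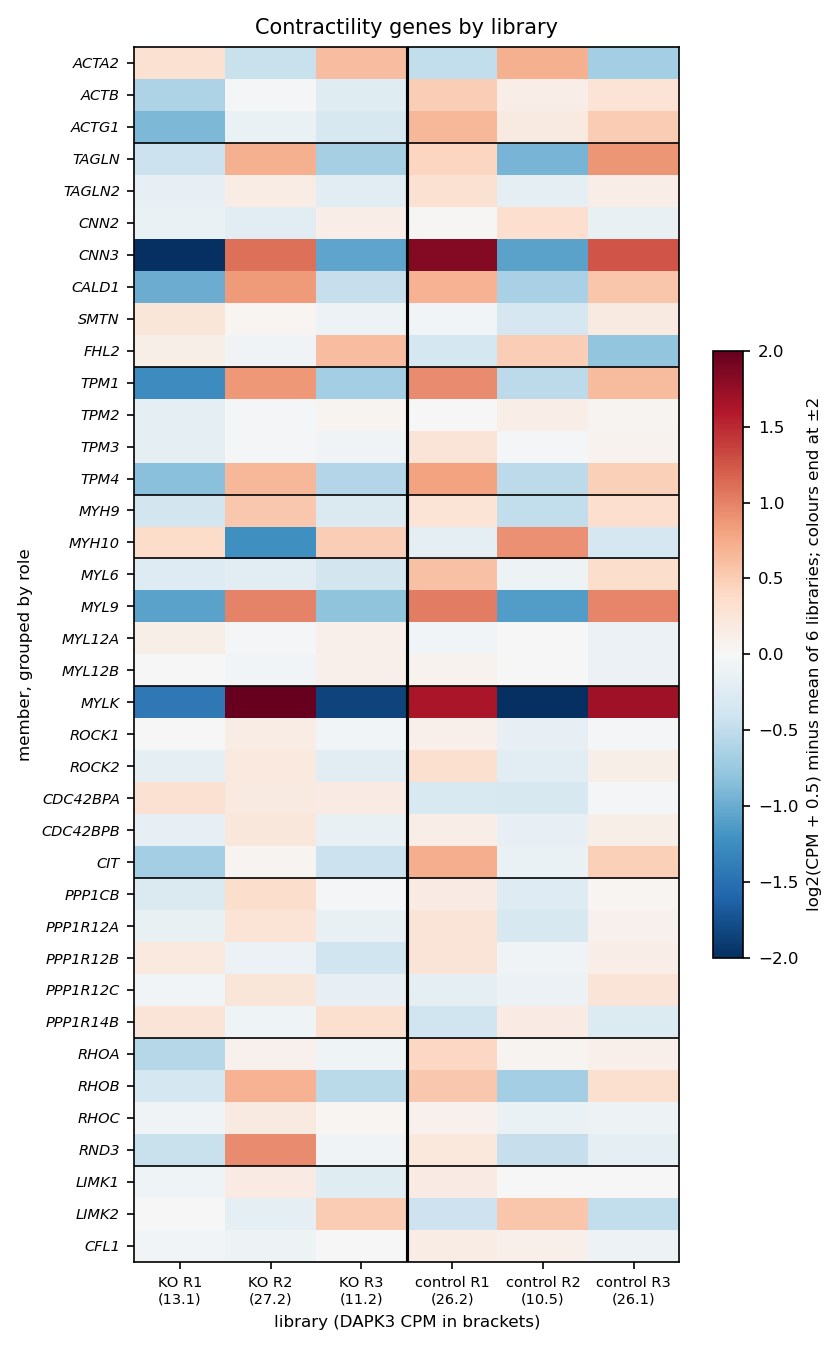
Each row is one of the 38 tested contractility genes and each column a library, KO left and control right, with its DAPK3 CPM in brackets. Colour gives log2(CPM + 0.5) minus the gene's mean over the 6 libraries, ending at ±2. In rows such as MYLK, CNN3 and TPM1, KO R2 has the colours of control R1 and control R3. Control R2 has those of KO R1 and KO R3 in the same rows. ACTB, ACTG1 and MYL6 are lower in each KO library than in each control library.

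The cytoplasmic actins were among the members without overlap of the labels (13.2%, against 13.8% of all genes), and neither was called over 6 libraries. ACTB (chromosome 7, 5527147 to 5563784, GRCh38), which encodes beta-actin, stood at 1691, 2542 and 2191 CPM in the KO libraries R1 to R3, against 3672, 2864 and 3145 CPM in the control libraries R1 to R3. ACTG1 (chromosome 17, 81509971 to 81523847), which encodes gamma-actin and carries a CArG box shown above, stood at 567, 972 and 845 CPM in the KO libraries, against 1686, 1198 and 1508 CPM in the control libraries. All KO libraries were below all control libraries in both genes, and in each group R2 was the library nearest to the other group. The log2 fold change over 6 libraries was −0.59 (SE 0.18, unadjusted p = 0.013, adjusted p = 0.635 by edgeR) for ACTB and −0.88 (SE 0.23, unadjusted p = 0.00673, adjusted p = 0.635 by edgeR) for ACTG1. Both were called without the R2 libraries, at −0.82 (SE 0.17, adjusted p = 0.0121 by edgeR) and −1.19 (SE 0.20, adjusted p = 0.00635 by edgeR).

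ACTA2, the smooth muscle alpha-actin used as a myofibroblast marker, followed DAPK3 RNA and not the label. It stood at 21.0, 12.3 and 26.2 CPM in the KO libraries R1 to R3, against 11.9, 28.0 and 10.4 CPM in the control libraries R1 to R3. The libraries low in DAPK3 were the high ones for ACTA2, so the labelled groups overlapped (log2 fold change 0.24, SE 0.45, adjusted p = 0.893 by edgeR). ACTA2 was called higher without both R2 libraries, at 1.07 (SE 0.19, adjusted p = 0.0076 by edgeR), which is opposite to ACTB and ACTG1. ACTA2 shares exonic bases with FAS and ACTA2-AS1 on the other strand, and no strand setting is given in the sources used here. ACTG2, the enteric smooth muscle actin with 2 CArG boxes, had at most 6 expected counts.

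**Figure D2:**
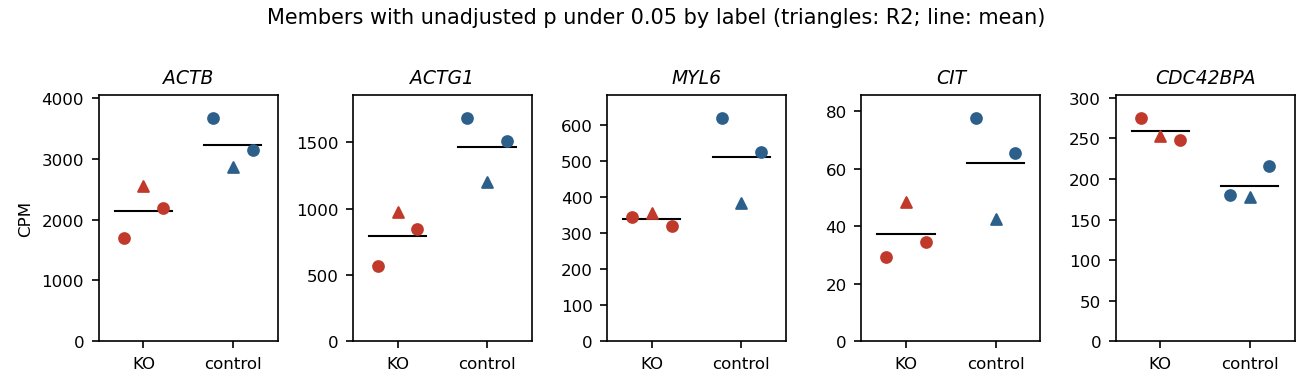
CPM of the 5 contractility genes with an unadjusted p under 0.05 between the labels, KO left and control right in each panel, with the 3 libraries of each group as points, R2 as triangles and the mean as a line. ACTB, ACTG1 and MYL6 are lower in each KO library than in each control library and CDC42BPA is higher, while CIT overlaps at 48.6 CPM in KO R2 and 42.6 CPM in control R2.

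Tropomyosins divided into genes that tracked DAPK3 RNA and genes that were nearly level. TPM1 (chromosome 15, 63042632 to 63071915), whose long isoforms stabilise stress fibres, stood at 43.1, 188 and 64.6 CPM in the KO libraries R1 to R3, against 199, 71.9 and 161 CPM in the control libraries R1 to R3. TPM4 (chromosome 19, 16067021 to 16103005), a short isoform gene with a CArG box, stood at 305, 866 and 363 CPM in the KO libraries, against 954, 380 and 756 CPM in the control libraries. In both, KO R2 lay with control R1 and control R3, and control R2 lay with KO R1 and KO R3. With both R2 libraries left out, TPM1 was at −1.75 (SE 0.21, adjusted p = 0.00187 by edgeR) and TPM4 at −1.37 (SE 0.16, adjusted p = 0.0016 by edgeR), against −0.55 (SE 0.61) and −0.45 (SE 0.48) over all 6 libraries, where neither was called.

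TPM2 and TPM3 showed smaller spreads. TPM2 averaged 270 ± 20.9 CPM in KO and 292 ± 14.4 CPM in control libraries (SD, n = 3 each). TPM3 stood at 288, 322 and 317 CPM in the KO libraries R1 to R3, against 398, 325 and 349 CPM in the control libraries R1 to R3, without overlap of the labels. Neither was called, with log2 fold changes of −0.11 (SE 0.11) for TPM2 and −0.21 (SE 0.12) for TPM3 over 6 libraries, and −0.10 (SE 0.13) for TPM2 and −0.32 (SE 0.12, adjusted p = 0.101 by edgeR) for TPM3 without both R2 libraries. Per kilobase of merged exons, the ratio of TPM4 to TPM2 was 0.462, 1.20 and 0.471 in KO R1, R2 and R3, against 1.29, 0.465 and 0.979 in control R1, R2 and R3. Which of these genes had the higher level per length depends on the length taken, whereas the spread of the ratio between libraries does not.

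Actin-binding proteins held some of the widest ranges. CNN3 (chromosome 1, 94896949 to 94927278), the acidic calponin of non-muscle cells, stood at 3.83, 38.2 and 8.12 CPM in the KO libraries R1 to R3, against 63.8, 8.03 and 42.5 CPM in the control libraries R1 to R3. CALD1 (chromosome 7, 134744252 to 134970728), which encodes caldesmon, an inhibitor of the actomyosin ATPase, stood at 55.4, 199 and 80.2 CPM in the KO libraries, against 179, 70.1 and 163 CPM in the control libraries. Both crossed the labels in R2. With both R2 libraries left out, the change was −3.15 (SE 0.35, adjusted p = 0.00147 by edgeR) for CNN3 and −1.35 (SE 0.19, adjusted p = 0.00315 by edgeR) for CALD1, against −1.20 (SE 0.99) and −0.30 (SE 0.54) with them.

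The transgelins parted the libraries alike at very different levels. TAGLN, an SRF target that marks smooth muscle, stood at 0.957, 2.72 and 0.738 CPM in the KO libraries R1 to R3, against 2.15, 0.526 and 3.12 CPM in the control libraries R1 to R3, which rests on 11 to 62 expected counts per library. TAGLN2, the abundant non-muscle transgelin and the highest of these proteins' genes per length, stood at 509, 630 and 484 CPM in the KO libraries, against 703, 494 and 627 CPM in the control libraries. Without both R2 libraries TAGLN was called at −1.65 (SE 0.40, adjusted p = 0.0221 by edgeR), with an adjusted p of up to 0.122 when 1 more library was left out, and TAGLN2 at −0.43 (SE 0.12, adjusted p = 0.0331 by edgeR), with up to 0.195. Over all 6 libraries neither was called, at −0.40 (SE 0.75) and −0.17 (SE 0.17). FHL2, an SRF-binding LIM protein with a CArG box, went the other way at 43.4, 38.0 and 61.8 CPM in the KO libraries, against 31.5, 56.7 and 23.0 CPM in the control libraries. It was called higher without both R2 libraries, at 0.94 (SE 0.22, adjusted p = 0.0208 by edgeR), and at 0.72 with an adjusted p of 0.0603 when control R3 was also left out. With all 6 libraries it was not called, at 0.37 (SE 0.36). CNN2, also with a CArG box, and SMTN, encoding smoothelin, were not called in either comparison, at −0.145 (SE 0.17) and 0.13 (SE 0.20) over 6 libraries and 0.06 (SE 0.14) and −0.01 (SE 0.20) without both R2 libraries.

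**Figure D3:**
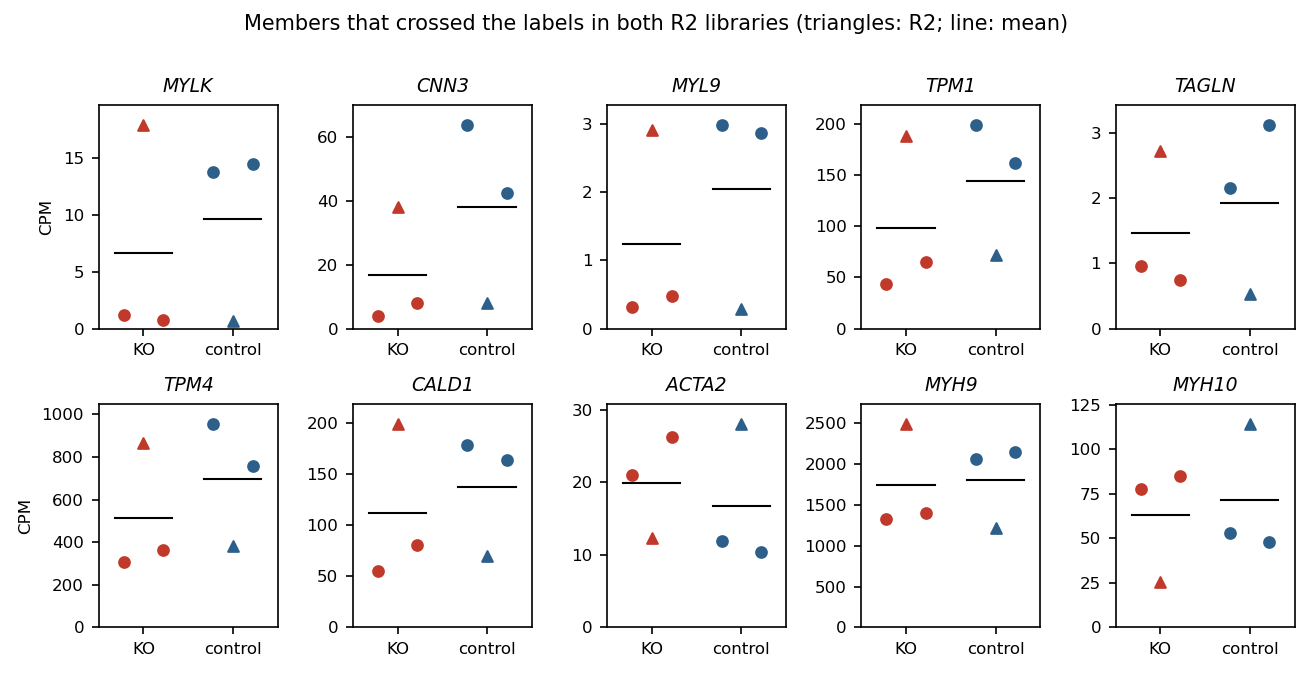
CPM of 10 contractility genes in which both R2 libraries went against their label, KO left and control right in each panel, with R2 as triangles and the group mean as a line. In MYLK, CNN3, MYL9, TPM1, TAGLN, TPM4, CALD1 and MYH9 the KO R2 triangle lies with the control R1 and R3 circles and the control R2 triangle with the KO R1 and R3 circles, and in ACTA2 and MYH10 the same libraries part in the opposite direction.

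The myosin heavy chains moved in opposite directions across the split by DAPK3 RNA. MYH9 (chromosome 22, 36281277 to 36388067), the heavy chain of myosin IIA and the more abundant heavy chain here per length, stood at 1320, 2487 and 1399 CPM in the KO libraries R1 to R3, against 2057, 1217 and 2150 CPM in the control libraries R1 to R3. MYH10, the heavy chain of myosin IIB, stood at 77.9, 25.5 and 85.0 CPM in the KO libraries, against 53.2, 114 and 47.9 CPM in the control libraries. Libraries low in DAPK3 were low for MYH9 and high for MYH10. Per kilobase, MYH9 was 17.0, 97.6 and 16.5 times MYH10 in KO R1, R2 and R3, against 38.7, 10.7 and 44.9 times in control R1, R2 and R3. MYH9 was called lower without both R2 libraries, at −0.64 (SE 0.12, adjusted p = 0.0093 by edgeR) and MYH10 higher at 0.68 (SE 0.13, adjusted p = 0.00926 by edgeR). Over all 6 libraries neither was called, at −0.06 (SE 0.32) and −0.19 (SE 0.52).

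Among the light chains, the essential chain parted the labels without a call over all 6 libraries, and the abundant regulatory chains were nearly level. MYL6 (chromosome 12, 56158161 to 56163496), the essential light chain of non-muscle myosin II, stood at 344, 355 and 319 CPM in the KO libraries R1 to R3, against 620, 384 and 526 CPM in the control libraries R1 to R3. No KO library reached the lowest control library. Its log2 fold change was −0.59 (SE 0.18, unadjusted p = 0.016, adjusted p = 0.635 by edgeR) over 6 libraries and −0.80 (SE 0.13, adjusted p = 0.00505 by edgeR) without both R2 libraries. MYL6 shares exonic bases with SMARCC2 on the other strand.

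MYL12A and MYL12B encode the non-muscle regulatory light chains that DAPK3 and myosin light chain kinase phosphorylate. MYL12B, the highest light chain gene per length over merged exons, averaged 301 ± 16.2 CPM in KO and 295 ± 19.0 CPM in control libraries, and MYL12A averaged 229 ± 13.4 CPM in KO and 211 ± 8.15 CPM in control libraries (SD, n = 3 each). Neither was called with or without the R2 libraries, and the log2 fold change was 0.03 (SE 0.11) with them and 0.06 (SE 0.12) without them for MYL12B, and 0.12 (SE 0.10) and 0.18 (SE 0.11) for MYL12A. These genes are near-identical copies, so reads shared between them were divided by estimate. MYL9 (chromosome 20, 36541484 to 36551447), the regulatory chain typical of smooth muscle, stood at 0.319, 2.91 and 0.478 CPM in the KO libraries R1 to R3, against 2.98, 0.287 and 2.87 CPM in the control libraries R1 to R3. It rests on 6 to 61 expected counts per library, and was called without both R2 libraries at −2.85 (SE 0.41, adjusted p = 0.00355 by edgeR), against −0.75 (SE 1.07) with them.

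**Figure D4:**
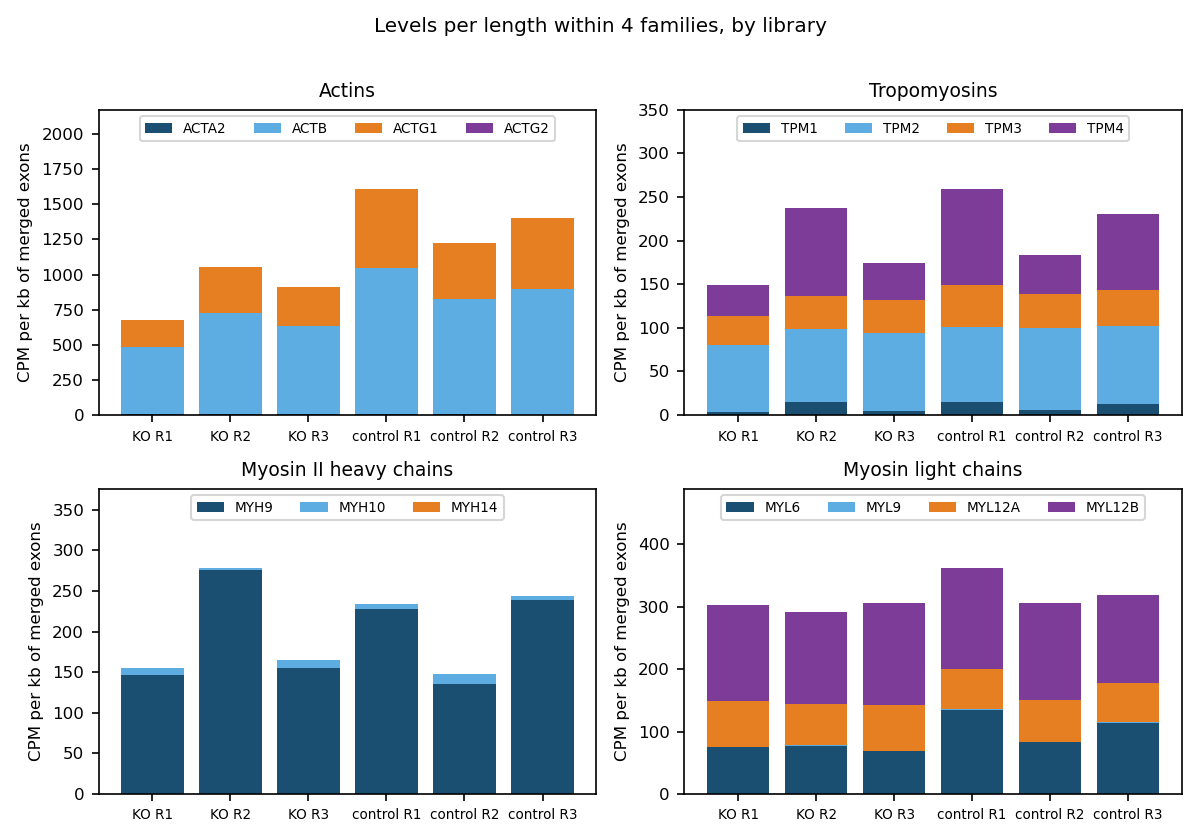
CPM per kilobase of merged exons, stacked by gene, in each library with KO left and control right, for actins, tropomyosins, myosin II heavy chains and myosin light chains. Actin totals are 677 to 1051 in KO and 1224 to 1610 in control libraries, while tropomyosin and heavy chain totals in KO R2 (237 and 279) are close to those in control R1 (259 and 234).

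MYLK had the largest fold change of the set without both R2 libraries, and CNN3 the largest with them. MYLK (chromosome 3, 123610049 to 123884331) encodes myosin light chain kinase, the calcium-dependent activator of myosin II. It stood at 1.22, 17.9 and 0.782 CPM in the KO libraries R1 to R3, against 13.8, 0.621 and 14.4 CPM in the control libraries R1 to R3. The 3 libraries above 13 CPM were those high in DAPK3, and the rest were below 2 CPM. Leaving out both R2 libraries gave a log2 fold change of −3.84 (SE 0.29, adjusted p = 0.000308 by edgeR), against −0.55 (SE 1.40, adjusted p = 0.922 by edgeR) with them. Gene-level counts do not separate the kinase from telokin, and MYLK shares exonic bases with MYLK-AS1 and MYLK-AS2.

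The ROCK kinases differed less. ROCK1 and ROCK2 encode the kinases through which RhoA drives contraction. ROCK1 averaged 105 ± 7.84 CPM in KO and 100.1 ± 9.24 CPM in control libraries (SD, n = 3 each) and was not called, at 0.06 (SE 0.12) over 6 libraries and −0.08 (SE 0.11) without both R2 libraries. ROCK2 stood at 70.9, 93.3 and 69.7 CPM in the KO libraries R1 to R3, against 101, 68.8 and 88.0 CPM in the control libraries R1 to R3. ROCK2 was lower in each library low in DAPK3 than in each library high in DAPK3. It was called without both R2 libraries at −0.44 (SE 0.12, adjusted p = 0.0349 by edgeR), against −0.14 (SE 0.19) with them, and leaving out control R1 as well gave an adjusted p of 0.21.

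CIT and CDC42BPA were the kinases with an unadjusted p under 0.05 between the labels. CIT (chromosome 12, 119685790 to 119877291), citron kinase, which acts on myosin at the cleavage furrow of dividing cells, stood at 29.3, 48.6 and 34.6 CPM in the KO libraries R1 to R3, against 77.8, 42.6 and 65.7 CPM in the control libraries R1 to R3. CIT overlapped between the labels in the R2 libraries only, and its low libraries were those low in DAPK3. Its log2 fold change was −0.73 (SE 0.28, unadjusted p = 0.036, adjusted p = 0.635 by edgeR) over 6 libraries and −1.18 (SE 0.15, adjusted p = 0.00233 by edgeR) without both R2 libraries. CDC42BPA (chromosome 1, 226989865 to 227318474), the Cdc42-activated kinase MRCK-alpha, stood at 276, 252 and 248 CPM in the KO libraries, against 181, 178 and 217 CPM in the control libraries. Every KO library was above every control library, with a log2 fold change of 0.43 (SE 0.12, unadjusted p = 0.0106, adjusted p = 0.635 by edgeR). It was not called without both R2 libraries, at 0.38 (SE 0.14, adjusted p = 0.0788 by edgeR). CDC42BPB, encoding MRCK-beta and the kinase gene of this group with the highest level per length over merged exons, stood at 123, 161 and 124 CPM in the KO libraries R1 to R3, against 150, 123 and 149 CPM in the control libraries R1 to R3, and was not called, at −0.05 (SE 0.16) over 6 libraries and −0.29 (SE 0.11) without both R2 libraries.

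Of 5 tested myosin phosphatase genes, 1, an inhibitor, was called without both R2 libraries, against 27.3% of all genes, so not above the background. PPP1CB, the catalytic subunit, stood at 163, 253 and 196 CPM in the KO libraries R1 to R3, against 222, 166 and 205 CPM in the control libraries R1 to R3. PPP1R12A, the targeting subunit MYPT1, stood at 68.8, 92.6 and 68.9 CPM in the KO libraries, against 91.0, 60.9 and 80.8 CPM in the control libraries. In both genes the libraries low in DAPK3 were the low ones. Neither these nor the related subunits PPP1R12B and PPP1R12C were called in either comparison, with log2 fold changes between −0.21 and 0.05 over 6 libraries and between −0.33 and −0.18 without both R2 libraries. PPP1R14B, an inhibitor of the phosphatase, stood at 273, 216 and 284 CPM in the KO libraries R1 to R3, against 173, 257 and 190 CPM in the control libraries R1 to R3. The libraries low in DAPK3 were the high ones. It was called higher without both R2 libraries at 0.60 (SE 0.12, adjusted p = 0.0108 by edgeR), with an adjusted p of 0.0546 when control R1 was also left out, and was at 0.32 (SE 0.19) over all 6.

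Of 5 tested small GTPase genes, RHOB alone was called without both R2 libraries, against 27.3% of all genes, so not above the background. RHOB, a short-lived GTPase induced by growth factors and stress, stood at 48.4, 101 and 42.5 CPM in the KO libraries R1 to R3, against 89.7, 38.4 and 77.6 CPM in the control libraries R1 to R3, with a log2 fold change of −0.89 (SE 0.13, adjusted p = 0.00418 by edgeR) without both R2 libraries and −0.10 (SE 0.43) with them. RHOA, the main activator of ROCK and the highest GTPase gene per length, stood at 292, 462 and 412 CPM in the KO libraries, against 582, 455 and 467 CPM in the control libraries. Its groups overlapped, with the libraries low in DAPK3 narrowly the low ones. RHOA was not called, at −0.37 (SE 0.20) over 6 libraries and −0.59 (SE 0.19, adjusted p = 0.0599 by edgeR) without both R2 libraries. RND3, which opposes RhoA and holds a CArG box, stood at 31.6, 84.1 and 41.2 CPM in the KO libraries, against 50.0, 31.3 and 38.2 CPM in the control libraries. KO R2 was the highest library for RND3, and the gene was not called, at 0.39 (SE 0.38) over 6 libraries and −0.29 (SE 0.19) without both R2 libraries. RHOC averaged 213 ± 18.7 CPM in KO and 199 ± 16.3 CPM in control libraries (SD, n = 3 each) and was not called, at 0.10 (SE 0.12) over 6 libraries and −0.02 (SE 0.12) without both R2 libraries.

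In the cofilin arm, through which LIM kinases stabilise filaments, LIMK2 was the 1 of 3 genes called without both R2 libraries. Over all genes 27.3% were called. LIMK2 stood at 45.3, 39.8 and 64.2 CPM in the KO libraries R1 to R3, against 33.7, 66.2 and 32 CPM in the control libraries R1 to R3, again with the libraries low in DAPK3 high. It was called without both R2 libraries at 0.73 (SE 0.19, adjusted p = 0.0279 by edgeR), with an adjusted p of up to 0.107 when 1 more library was left out, and was at 0.18 (SE 0.33) over all 6. LIMK1 was not called, at −0.10 (SE 0.14) over 6 libraries and −0.26 (SE 0.13) without both R2 libraries, and the ratio of LIMK2 to LIMK1 per kilobase was 0.899, 0.667 and 1.43 in KO R1, R2 and R3, against 0.563, 1.24 and 0.600 in control R1, R2 and R3. CFL1, which encodes cofilin, the filament-severing protein that LIM kinases inhibit, averaged 713 ± 30.7 CPM in KO and 764 ± 69.2 CPM in control libraries (SD, n = 3 each) and was not called, at −0.10 (SE 0.11) over 6 libraries and −0.06 (SE 0.13) without both R2 libraries.

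**Figure D5:**
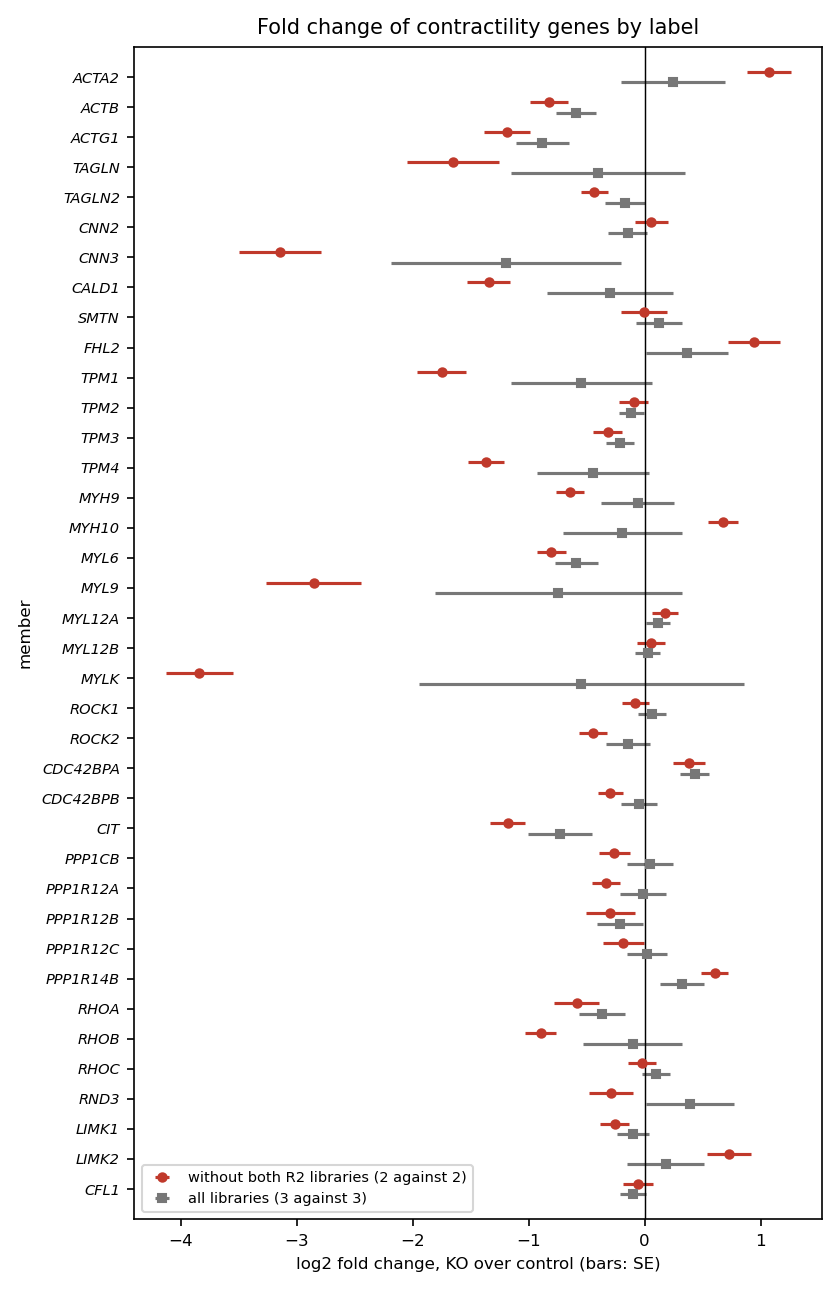
Log2 fold change of KO over control with its SE for the 38 tested contractility genes, without both R2 libraries (circles) and over all libraries (squares). MYLK moves from −0.55 to −3.84 and CNN3 from −1.20 to −3.15 when the R2 libraries are left out. ACTB moves less, from −0.59 to −0.82, and CDC42BPA stays near the same place (0.43 and 0.38).

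The ratio of ACTB to ACTG1 did not depend on scaling and followed the label. Per kilobase it was 2.54, 2.23 and 2.21 in KO R1, R2 and R3, against 1.85, 2.03 and 1.77 in control R1, R2 and R3, so the labelled groups did not overlap. The ratio of ACTB to ACTA2 followed DAPK3 RNA, at 68.1, 175 and 70.6 in the KO libraries, against 260, 86.5 and 257 in the control libraries. These were 2 of 8 ratios between family members computed after their values were seen, and none was tested.

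Other genes of the pathway were counted in 4 lists of 66 genes outside the members, leaving out DAPK3 because its RNA set the choice of libraries. Over all 6 libraries edgeR called 0 of them. Without both R2 libraries 19 of 57 tested were called lower (33.3%, against 15.2% of all genes) and 7 higher (12.3%, against 12.2%). Of 17 regulators of RhoA-family GTPases 6 were lower and 1 higher (41.2% called, against 27.3% of all genes). ARHGAP29, a RhoA GTPase-activating protein, had a log2 fold change of −3.56 (SE 0.38) without both R2 libraries, against −0.59 (SE 1.30) with them. In the same order, ARHGEF3 was at −1.86 (SE 0.56) against −0.87 (SE 0.71), ARHGAP18 at −1.24 (SE 0.23) against −0.34 (SE 0.49), and ARHGEF12, a RhoA exchange factor, at −1.06 (SE 0.13) against −0.31 (SE 0.42). ARHGEF2, the microtubule-bound exchange factor GEF-H1, was the 1 higher and followed the label, at 502, 574 and 521 CPM in the KO libraries R1 to R3, against 339, 402 and 282 CPM in the control libraries R1 to R3. Its log2 fold change was 0.71 (SE 0.13) without both R2 libraries and 0.64 (SE 0.15) with them, and it was named after its values were seen.

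Of 15 formins, profilins and cofilin regulators 4 were lower and 1 higher without both R2 libraries (33.3% called, against 27.3% of all genes), a share near the background. FMNL3, a formin, was at −1.54 (SE 0.22) without both R2 libraries and −0.56 (SE 0.54) with them. In the same order, DIAPH3 was at −0.71 (SE 0.18) and −0.28 (SE 0.27), CFL2 at −0.55 (SE 0.15) and −0.07 (SE 0.31), and PFN1, the actin monomer binder profilin, at 0.80 (SE 0.12) and 0.35 (SE 0.27). In the list of other kinases, phosphatase parts and myosins 4 of 11 tested were lower and 3 higher (63.6% called, against 27.3% of all genes), again leaving out DAPK3. PPP1R14C, a phosphatase inhibitor, was at 1.38 (SE 0.22) without both R2 libraries and 0.37 (SE 0.55) with them, and MYL5 at 1.36 (SE 0.39) and 0.72 (SE 0.48).

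Of 14 tested genes in the SRF list 5 were lower and 2 higher without both R2 libraries (50% called, against 27.3% of all genes). VCL, encoding vinculin, stood at 51.3, 115 and 58.7 CPM in the KO libraries R1 to R3, against 193, 86.9 and 154 CPM in the control libraries R1 to R3. It was at −1.67 (SE 0.15) without both R2 libraries and −0.95 (SE 0.40) with them. In the same order, FERMT2, encoding kindlin-2, was at −1.54 (SE 0.17) and −0.36 (SE 0.60), ACTN4, encoding alpha-actinin-4, at −0.99 (SE 0.13) and −0.51 (SE 0.28), and PDLIM7 at 0.65 (SE 0.16) and 0.36 (SE 0.22). SRF itself and its cofactor genes were not called, with SRF at 0.02 (SE 0.12) and 0.21 (SE 0.14), MKL1 at 0.20 (SE 0.16) and 0.17 (SE 0.14), and MKL2 at 0.22 (SE 0.14) and 0.14 (SE 0.13).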

How the data were processed

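The deposited table holds expected counts from RSEM for each gene, without normalization and in 1 column per library, per the file headers. RSEM, Bowtie2, edgeR and GRCh38 are named in the submitters' processing notes, without versions, strand setting or annotation release. Between 9.42% and 10.6% of values in a library were not whole, and counts were rounded before testing. KO was compared with control in edgeR 4.0.16 under R 4.3.3, using the quasi-likelihood test with TMM factors, filterByExpr, no block and Benjamini-Hochberg adjustment over all genes tested, calling an adjusted p under 0.05. A positive log2 fold change means higher in KO, and its SE is its size divided by the square root of F. CPM uses the rounded total times the TMM factor. Merged exon lengths and coordinates are from GENCODE release 29, and 21 of the 44 members share exonic bases with a gene on the other strand. Reads that fit several near-identical genes are split by estimate in RSEM, which touches actins, tropomyosins and light chains.

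Separate cultures are not stated in the labels, and the p-values therefore reflect only the spread among the libraries at hand, possibly technical. Every pair of libraries differed by more than sampling noise (lowest chi-square per degree of freedom 12.9, between KO R3 and control R2). The members, gene lists and the removal of both R2 libraries were chosen with earlier results of these data known. Values are given library by library for members with an unadjusted p under 0.05, members called at a log2 fold change of at least 1 without both R2 libraries, the highest member per length of each role, and further called members. Per pathway list, up to 4 called genes with the largest fold change are named. Some listed genes are not reported here. The edgeR step was tested on simulated counts. DESeq2 1.42.0 and limma-voom (limma 3.58.1) were alternatives, with other scalings, filters, a replicate block and each library left out.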

Additional observations from a re-analysis of the deposited data

How the results depend on the processing

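Over all 6 libraries, 0 contractility genes were called under RLE, upper-quartile and library-size scaling, both other filters, limma-voom, the replicate block and with each library left out. DESeq2 called 124 genes in all and 1 contractility gene lower, ACTG1 (log2 fold change −0.88, adjusted p = 0.035). With all libraries kept, 5 contractility genes had an unadjusted p under 0.05 in each setting, except 2 under the replicate block. Fits that left out 1 library gave 3 to 10, with 10 without KO R2, 8 without control R2 and 3 without control R1. The share of all genes at that threshold was counted in the main fit only, so the other counts have no background beside them. Same-numbered libraries of the labels deviated in opposite directions (correlations of −0.68, −0.859 and −0.731), so the numbers were not taken as pairs. Without both R2 libraries, which raised the genes called to 4055, no call on a contractility gene reversed. Leaving out 1 further library gave 2543 to 3700 genes called, the fewest without control R1, and 3 to 5 contractility genes higher, with 3 without control R1 or control R3. In those fits the lone library is assumed to vary like the other group. Under the replicate block 2705 genes were called in all. Of the contractility genes, 11 were called lower and 5 higher, with MYH9 at an adjusted p of 0.0537 by edgeR. A crossed pairing of the 4 libraries, tried because the same-numbered ones correlated at −0.26, gave 6149 genes called. With the longest transcript as length, the leading gene changed to TPM4, MYL6 and CDC42BPA in 3 of 9 roles. Of the 20 calls, 13 held under every alternative run. TAGLN, MYL9 and MYLK rest on the fewest reads among the called members.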
